A study of Felis catus with 77 samples.

Results

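The 100 genes described here were those raised most in cluster C3 of feline fibrosarcoma (FSA), relative to the main tumor cluster C1. They were chosen from counts scaled by median-of-ratios size factors, which bring libraries of different depth to a common scale. A gene was eligible if its median normalized count over the 5 C3 tumors was at least 50, which held for 8753 of the 19587 identifiers listed, and the 100 eligible genes with the largest ratio of (C3 median + 1) to (C1 median + 1) became members. The level in C3 and C1 tumors therefore chose the members, and everything said of these tumors is a description without a test. Since C3 comprised only 5 tumors, the rest of the dataset was used to see how uniform the members were, where else they were expressed and what they shared beyond the ratio.

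FSA are naturally occurring malignant tumors of fibroblast-like cells in the skin and subcutis of cats. The RNAseq dataset held 77 libraries of formalin-fixed tissue from 30 feline patients, isolated by laser-capture microdissection (LCM), in which areas picked by a pathologist are cut from a section. It comprised 30 tumors (T), 16 samples of adipose tissue (AT), 11 of connective tissue (CT) and 20 of skeletal muscle (SM), the normal tissues (NT) coming from the same patients as the tumors, and a case number marks libraries of the same cat. The labels give no treatment, age or genotype. C3 comprised the tumors of cats 7, 10, 27, 28 and 30, C2 the 7 tumors of cats 11 to 17, and C1 the other 18 tumors. No tumor was a replicate of another, as each came from its own animal, and the NT next to a tumor is not tissue of a healthy cat. Of the C3 cats, 3 had an AT library (10, 27, 28), 3 an SM library (7, 10, 30) and 1 a CT library (30).

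The study described C3 tumors by an inflammatory expression pattern. Inflamed tissue holds lymphocytes, macrophages and other leukocytes beside its resident cells, and these bring transcripts that mesenchymal cells lack, while cytokines such as interferons also raise genes for antigen presentation in the resident cells. Fibroblasts, in turn, make the collagens and other matrix proteins of connective tissue. The files give Ensembl identifiers only, and the reference table at hand matched 0 of them to a symbol, so no member could be assigned to a cell type or pathway, the marker lists could not be applied, and the inflammatory label could not be checked. In microdissected tissue, fewer cells of a type and less RNA per cell cannot be told apart.

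Total counts per library ranged from 847003 to 19099337, and the C3 tumors, at 6655671 to 10770305, were neither the deepest nor the shallowest. Libraries of cats 11 to 17 had more genes detected than those of other cats (a median of 18343 in C2 tumors, 14395 in C1 tumors and 14947 in C3 tumors). This held for each of their T, CT and SM libraries, while in AT cat 5, with 16161 genes, exceeded cats 12 (16077) and 15 (15761). Since C2 consisted of these cats alone, the C2 tumors cannot be told apart from whatever raised these cats' libraries, and results that include their NT are also given without them.

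The ratios of the members ranged from 8.30 to 96.3, with a median of 13.9, whereas the median ratio over the 8753 eligible genes was 1.03. A ratio over 10 was found for 76 members, over 20 for 30 and over 50 for 14. The choice of 100 did not fall at a break: the members ranked 99 and 100 had ratios of 8.38 and 8.30, and the next genes down had ratios of 8.26 and 8.21. The C3 median of the members ran from 51.1 to 10883, with a middle value of 134, and their C1 median had a middle value of 8.52. In C1 tumors, 10 members had a median under 1 normalized count and 45 a median between 1 and 10, but 12 reached 50 or more. Thus the set mixed genes close to absent from C1 tumors with genes that were well expressed there and higher still in C3.

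Per tumor, the mean over the members of log2(normalized count + 1), called the mean log2 level here, was 6.64 in tumor 7, 7.08 in tumor 30, 7.37 in tumor 27, 7.61 in tumor 28 and 7.68 in tumor 10. The C1 tumors lay between 2.40 and 4.77, with a median of 3.21, and the C2 tumors between 4.28 and 6.67, with a median of 5.81. C3 tumors did not overlap with C1 tumors, which the rule fixed, and the lowest C3 tumor lay just below the highest C2 tumor. Together the members took up 0.831% to 3.31% of all counts in C3 tumors, 0.101% to 0.738% in C2 tumors and 0.0298% to 0.308% in C1 tumors. A count was found for 98 to 100 of the members in each C3 tumor and for 68 to 98 in each C1 tumor.

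**Figure D1:**
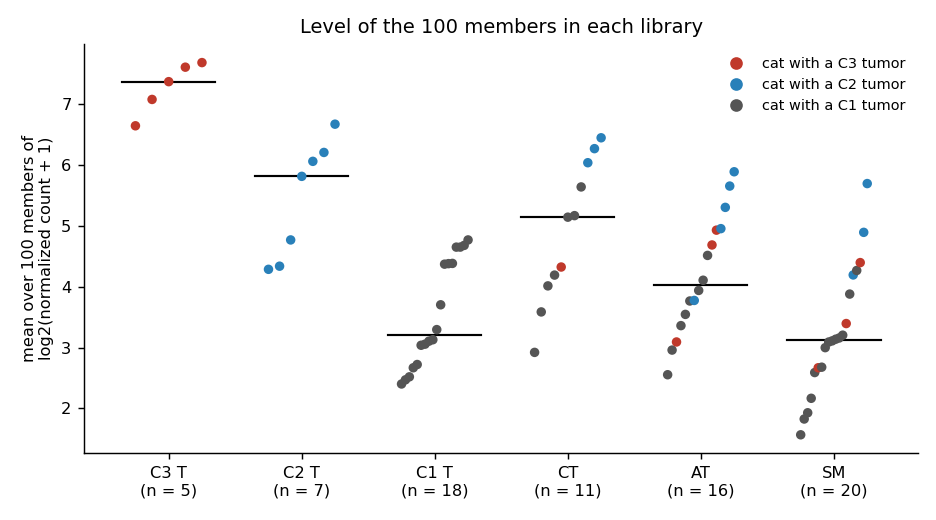
Mean over the 100 members of log2(normalized count + 1) in each of the 77 libraries (points), by cluster for T and by tissue for NT, with black bars at the group median and color by the cluster of the cat's tumor. The C3 tumors lie at 6.64 to 7.68, the C1 tumors at 2.40 to 4.77, and in CT the 3 highest libraries are those of cats 11 to 17.

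The C1 tumors were not uniform. In 10 of them the mean log2 level was 3.29 or less, tumor 9 stood at 3.70, and the remaining 7 (tumors 5, 6, 20, 21, 22, 23 and 34) lay between 4.37 and 4.77. The lowest value, 2.40, was that of tumor 29, and the highest, 4.77, that of tumor 22. The highest C1 value of a member was most often found in tumor 22 (16 members), followed by tumors 23 (14), 34 (12), 21 (11) and 6 (10).

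Next, the members were compared among the 5 C3 tumors themselves. The highest C3 tumor exceeded the lowest by a median of 6.53-fold per member (range 1.40 to 1651), compared with 2.41-fold over all eligible genes. A difference over 10-fold was seen for 41 members, a class that held 5.44% of the eligible genes, and a difference under 3-fold for 26. All 5 C3 tumors exceeded every C1 tumor for 28 members. The same held for 1.35% of the eligible genes, but this contrast chose the members, so nothing is read from it. At least 3 C3 tumors did so for 73 members, while 10 members had no C3 tumor above the highest C1 tumor, and 5 members were higher in every C3 tumor than in any other tumor. The shares of the eligible genes were not computed for these counts. As C3 and C1 values chose the members, the counts describe the set only. Tumor 30 was the highest C3 tumor for 32 members and tumor 28 for 24. Tumor 7 was the lowest for 31, yet even there 91 members exceeded the C1 median more than 2-fold, against 95 to 98 in the other C3 tumors. Most members thus stood above the C1 median in each C3 tumor, while for part of the set the size of that rise differed widely between tumors.

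The members were then sorted by their lowest pair of C3 tumors. Of the 10 possible pairs of lowest tumors, 7 and 30 were the lowest pair for 22 members, 27 and 28 for 18 and 7 and 10 for 16. The pairs were not counted over the eligible genes, so none is read as particular to the members. The 22 members lowest in tumors 7 and 30 included 21 of the 41 that varied over 10-fold and 15 of the 20 with the largest ratios, and their median ratio was 53.5, as opposed to 11.7 for the other 78. They held 63.6% of all member counts in C3 tumors. Their mean log2 level was 10.11 in tumor 28, 9.38 in tumor 10 and 8.33 in tumor 27, but 5.13 in tumor 30 and 4.72 in tumor 7. On this scale 2 of the 18 C1 tumors (21 at 4.83 and 22 at 5.76) and 4 of the 7 C2 tumors exceeded C3 tumor 7. For the other 78 members the 5 C3 tumors were close together, at 6.90 to 7.62, with the highest value in tumor 30, and the highest C1 and C2 tumors reached 4.72 and 6.74. Because the 22 were picked by their order within C3, these levels are a description only. The closeness of the other 78 was that of a mean, since 20 of them also varied over 10-fold within C3, and 28 had all 5 C3 tumors above every C1 tumor.

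**Figure D2:**
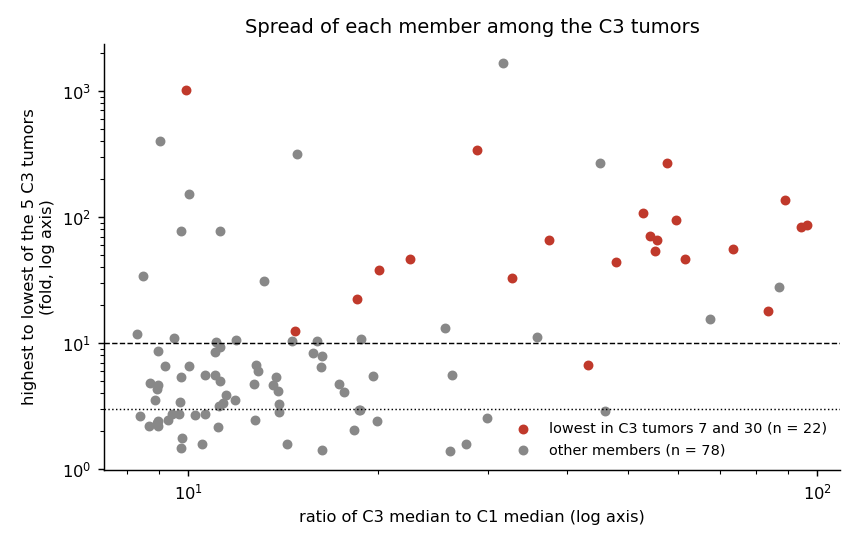
Ratio of C3 median to C1 median (x axis, log scale) against the fold between the highest and lowest C3 tumor (y axis, log scale) for each of the 100 members, with lines at 10-fold (dashed) and 3-fold (dotted). Members whose lowest C3 tumors are 7 and 30 (red, n = 22) lie mostly at large ratios and above the 10-fold line.

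The member with the largest ratio, 96.3, was ENSFCAG00000040770. Its normalized counts were 386 in tumor 28, 165 in tumor 10, 157 in tumor 27, 23.1 in tumor 7 and 3.45 in tumor 30, the last resting on 9 counts. In C1 tumors the lowest, median and highest values were 0, 0.639 and 26.4, with 7 of 18 tumors at 0, and in C2 tumors 2.77, 22.7 and 227. Thus 3 C3 tumors stood above every C1 tumor, tumors 7 and 30 did not, and C2 tumors overlapped with C3. In NT its median was 8.45 in AT, 6.48 in CT and 0 in SM, where 15 of 20 libraries had no count.

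ENSFCAG00000050424, with a ratio of 94.3, followed the same order among C3 tumors. It reached 3427 in tumor 28, 839 in tumor 10, 694 in tumor 27, 61.8 in tumor 7 and 40.2 in tumor 30. The C1 tumors spanned 0 to 89.2 with a median of 6.37, and the C2 tumors 0 to 37.3 with a median of 7.75. All 5 C3 tumors were therefore above every C2 tumor, and 3 above every C1 tumor. The highest AT library (403) came from C3 cat 28. The highest SM library (271, C3 cat 7) rested on 26 counts in the library with the smallest size factor, and the SM of the other C3 cats had 1.18 and 5.21. In CT the highest value (304) was that of C1 cat 8, and the library of C3 cat 30 had no count.

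Among members of high abundance, the one ranked 11 by ratio had the most counts. Its normalized count was 74874 in tumor 28, 42796 in tumor 10, 10883 in tumor 27, 1517 in tumor 30 and 1141 in tumor 7, and it alone made up 47.5% of the member counts in tumor 28 and 41.2% in tumor 10. The member ranked 12 showed the same order, from 22784 in tumor 28 down to 422 in tumor 7. The 10 most abundant members together accounted for 68.3% of the member counts in C3 tumors. The share of counts thus rested on a few genes, while the mean log2 level weighs every member alike. Without these 10, the median C3 level was 6.97 and the median C1 level 2.996.

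The widest member, ranked 22 and described after its values had been seen, differed 1651-fold among C3 tumors in normalized count + 1. It stood at 6001 in tumor 30, 4829 in tumor 28 and 2599 in tumor 27, but at 9.82 in tumor 7 and 2.64 in tumor 10. Its C1 tumors spanned 4.01 to 2878, a range that held C3 tumors 7 and 27, with tumors 28 and 30 above it and tumor 10 below.

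The heatmap of all members shows the 22 members apart from the rest, together with rows that were brighter in NT than in any C3 tumor.

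**Figure D3:**
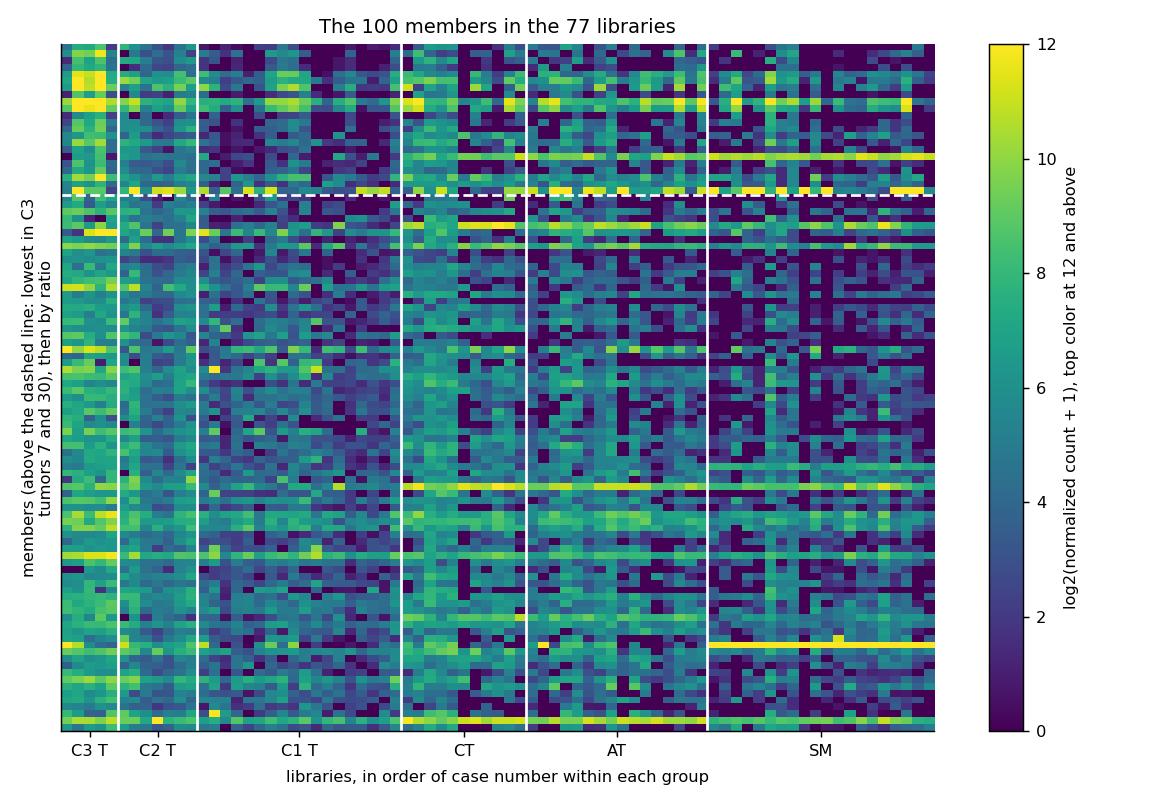
Color gives log2(normalized count + 1) of each of the 100 members (rows) in each of the 77 libraries (columns), grouped as C3, C2 and C1 tumors, CT, AT and SM and ordered by case number. The 22 rows above the dashed line are the members whose lowest C3 tumors are 7 and 30, and they are brightest in the middle columns of C3, tumors 10, 27 and 28.

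To see whether the raised level depended on each tumor having helped to choose the genes, the choice was repeated without each C3 tumor in turn. Each repeat kept between 71 (without tumor 30) and 80 (without tumor 28) of the 100 members. The tumor that had been left out then showed a mean log2 level over the newly chosen genes of 5.64 (tumor 7), 7.06 (tumor 10), 6.54 (tumor 27), 6.83 (tumor 28) or 5.71 (tumor 30). In each case this was above the highest C1 tumor, which reached 4.35 to 4.60 over the same genes. Of the 100 genes chosen, 89 to 97 exceeded the C1 median in the tumor left out, and 33 to 63 exceeded every C1 tumor. Tumors 7 and 30 again had the lowest values, and the highest C2 tumor exceeded both (6.02 against tumor 7 and 6.09 against tumor 30). The C1 tumors took part in every choice and were low by it, and the cluster was drawn on all tumors, including the one left out, so the values are not independent of the rule.

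Between the clusters, C2 tumors lay in the middle. The C2 median was between the C1 and C3 medians for 95 members, and it was above the C1 median for 99, compared with 4575 of the 8753 eligible genes. It exceeded the C3 median for 4 members, compared with 4166 eligible genes. A place between C1 and C3 was largely fixed by the choice of genes low in C1 and high in C3, so nothing is read from these counts. In the NT of cats 11 to 17, members ran higher than in the NT of C1 cats: the median of C2 cats was above that of C1 cats for 82 members in AT, 73 in CT and 84 in SM, as opposed to 52.1% to 54.6% of the eligible genes. In AT and CT, genes abundant in SM (defined below) ran higher in C2 cats too. These genes were chosen as low in AT and CT, so they do not show how general the rise was. The median mean log2 level of these SM-abundant genes, without the 1 member among them, was 6.06 in AT of C2 cats and 2.80 in AT of C1 cats. In CT it was 6.80 and 3.51, in tumors 5.55 and 3.03, and in SM itself 12.74 and 12.70. The part of cats 11 to 17 in the C2 level was not tested beyond this.

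C2 tumors were tested against the AT of cats 11 to 17, a comparison in which no C3 or C1 library took part. Of 97 members tested, 1 was called higher and 4 lower in the tumors, where 0.829% of all genes tested were called higher and 2.98% lower (edgeR's quasi-likelihood test, adjusted p under 0.05 and log2(FC) beyond 1). These shares are close to the background. By group medians, 55 of the 100 members were higher in the C2 tumors, compared with 55.5% of the eligible genes. Without libraries under 2000000 counts 0 were called higher, beside 33 of 16203 genes, and without the AT library of cat 12 there were 2, beside 93 of 16700. The largest fall was that of ENSFCAG00000026205, whose normalized counts were 18.5 to 100.8 in the 7 C2 tumors and 49.5 to 1914 in the 5 AT libraries (log2(FC) -4.57 ± 0.68 (SE), adjusted p = 0.000337 by edgeR).

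Across NT, the members were highest in CT for most of the set. The median of the members' group medians was 38.0 in CT, 16.3 in AT and 4.42 in SM, beside 134 in C3 tumors, 35.6 in C2 tumors and 8.52 in C1 tumors. CT was the highest NT for 69 members, AT for 20 and SM for 4. In the remaining 7 all NT medians were under 1, which was true of 16 of the 8753 eligible genes, so these members were close to absent from normal tissue. C3 was the highest of the 6 groups for 86 members, CT for 8, SM for 3, C2 for 2 and AT for 1, while SM was the lowest for 54 and C1 tumors for 29. The C1 median lay below the CT median for most members, as it was higher for only 19, and it was higher than the AT median for 36 and the SM median for 68. Over the eligible genes the C1 median was above the CT median for 4584 of 8753. As the rule picked genes low in C1, the low place of C1 is a description.

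By library, the mean log2 level was 2.92 to 6.45 in CT (median 5.14), 2.55 to 5.89 in AT (4.02) and 1.57 to 5.69 in SM (3.12), and the ranges of the 3 tissues overlapped widely. Without cats 11 to 17 the medians were 4.26, 3.76 and 3.09, so the lead of CT became smaller on this measure. By medians per member the lead of CT over AT did not shrink. The median log2 ratio of AT to CT was -0.79 with these cats and -0.87 without them. SM libraries detected a median of 69.5 members. Their total counts were the highest, with a median of 12291936. Their size factors, at 0.0959 to 1.88, nonetheless ran lower than those of C1 tumors, at 1.14 to 3.29. The part of depth in the number of members detected was not tested.

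CT was compared with SM across all genes. Of 70 members that could be tested, 31 were called higher in CT and 4 lower, where 23.8% of all genes tested were called higher and 15.3% lower. With the cat as a block, in the 8 cats with both tissues, 34 of 67 members were called higher and 4 lower. Of all 12022 genes tested in that fit, 2164 were called higher and 1929 lower. The filter on low counts let a member pass through the tissue in which it was high, so these counts describe the members tested and not the set. Without TMM, the scaling that corrects for a few very abundant transcripts, the calls were 57 higher and 1 lower, beside 8029 and 607 of 12443 genes, while the median log2(FC) over every gene tested shifted from 0.30 to 1.504. Over all 100 members, the CT median exceeded the SM median for 84, compared with 59.0% of the eligible genes, and for 80 without cats 11 to 17. The largest rise among those called was that of the member ranked 40 (log2(FC) 4.69), which was also one of the steadiest members in C3, at 55.3 to 78.5 normalized counts. Its highest C1 tumor, at 574, was nonetheless above every C3 tumor.

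AT was compared with SM in the same way. Of 57 members tested, 14 were called higher in AT and 3 lower, where 21.1% of all genes tested were called higher and 13.8% lower. In this fit, which did not pair libraries by cat, the share called higher was close to the background. With the cat as a block, in the 10 cats with both tissues, 19 of 46 members were called higher and 4 lower. Of all 11313 genes tested in that fit, 2178 were called higher and 1741 lower. The filter on low counts acted in both fits, so these counts describe the members tested and not the set. Without TMM 43 were called higher and 2 lower, beside 7536 and 570 of 12053 genes, and here the median log2(FC) over every gene tested shifted from 0.23 to 1.36. The AT median exceeded the SM median for 84 of all 100 members, compared with 57.1% of the eligible genes, and for 73 without cats 11 to 17. Both tests used the same SM libraries and are therefore not independent of each other.

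In the direct comparison of AT and CT, 0 of 80 members tested were called higher in AT and 2 lower by edgeR, where 4.32% of all genes tested were called higher and 2.87% lower, and 11 had an unadjusted p under 0.05, as did 2823 of all 12491 genes. With DESeq2 0 were higher and 6 lower, beside 506 higher and 509 lower of 12491 genes. With the cat as a block 0 were called in either direction, beside 165 higher and 60 lower of 13007 genes. The group medians leaned toward CT, as the AT median was the higher for 24 members, compared with 44.2% of the eligible genes. Without cats 11 to 17 it was the higher for 20 members, compared with 45.1% of the eligible genes.

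**Figure D4:**
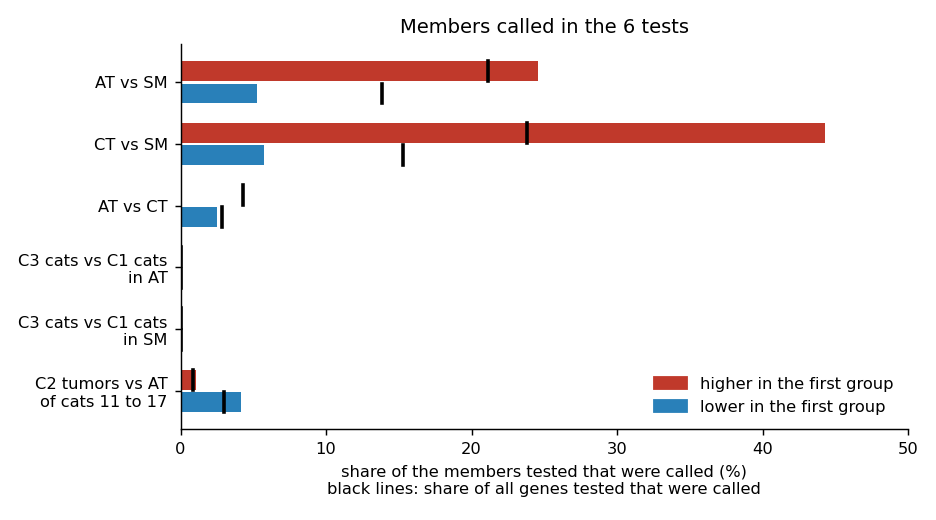
Share of the members tested (bars, in percent) that were called higher (red) or lower (blue) in the first group named, in each of the 6 tests, with black lines at the share of all genes tested that were called. The bar exceeds the line most in CT vs SM among genes called higher (31 of 70 against 23.8%). The filter on low counts let a member pass through the tissue in which it was high, so the bars describe the members tested and not the set. No member, and no gene of any kind, was called between C3 cats and C1 cats in AT or SM.

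Whether the NT of C3 cats showed the members as well was tested separately. In AT, 3 libraries of C3 cats were compared with 8 of C1 cats: 0 of 75 members were called in either direction by edgeR, as were 0 of all genes (0% in both directions), and 3 members had an unadjusted p under 0.05. In SM, with 3 libraries against 14, 0 of 76 members were called, again with 0% of all genes in both directions, and 11 had an unadjusted p under 0.05. DESeq2 called 0 members in both tissues. At that threshold 260 of 12417 genes passed in AT and 616 of 13239 in SM. Since the edgeR tests called no gene of any kind, the lack of calls says little about the members. By medians, C3 cats were higher for 60 members in AT and 58 in SM, compared with 54.3% and 48.8% of the eligible genes. The mean log2 level in AT of C3 cats was 3.09 (cat 27), 4.68 (cat 10) and 4.93 (cat 28), so that 2 of the 3 lay above the AT of every C1 cat (2.55 to 4.51). In SM of C3 cats it was 2.67 (cat 10), 3.39 (cat 7) and 4.40 (cat 30), beside 1.57 to 4.27 in C1 cats.

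Within the same animal the C3 tumors stood well above the NT. The tumor had the higher value for 79 of 100 members in cat 7 against its SM, 87 and 92 in cat 10 against AT and SM, 94 in cat 27 and 91 in cat 28 against AT, and 87 and 84 in cat 30 against CT and SM. Of the eligible genes, 56.7% to 59.6% were higher in these tumors. The median log2 difference of the members ranged from 2.51 in cat 28 against AT to 5.69 in cat 10 against SM. These are single libraries without replicates, and the tumor values had chosen the members.

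A few members showed their highest levels outside tumors. ENSFCAG00000024481 was by far most abundant in SM, with normalized counts of 7213 to 169566 and a median of 33682, and among C3 tumors it was high in tumor 7 (5633) and tumor 10 (1555) but not in tumors 27 (55.3), 28 (18.8) and 30 (13.02). C1 tumors spanned 0 to 1757 and C2 tumors 58.7 to 2142, so C3 overlapped with both. It fell by 8.18 on the log2 scale from SM to CT (SE 0.97, adjusted p = 1.25e-08 by edgeR) and fell by 5.25 from SM to AT (SE 1.09, adjusted p = 8.50e-05 by edgeR), the largest falls among the members in both tests. The AT library of cat 6 held 16214 normalized counts of it, where the AT median was 34.9, and without that library it fell by 8.71. With the cat as a block it fell by 10.09. It was the only member among 139 genes abundant in SM (a median of at least 1000 there and at least 20-fold that of AT and CT). The other SM-abundant genes had a mean log2 level of 2.68 in tumor 7, the lowest of the 30 tumors. Across C3 tumors it was 2.68 to 3.50, with C1 tumors at 2.72 to 6.32 and C2 tumors at 4.29 to 6.62. The high value of this member in tumor 7 was therefore not shared by the other genes abundant in muscle.

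ENSFCAG00000026205 likewise had a higher median in every NT than in the tumors. Its medians were 1381 in SM, 717 in AT and 478 in CT, whereas C3 tumors had 338 (tumor 28), 104 (tumor 10), 86.4 (tumor 27), 0.766 (tumor 30) and 0 (tumor 7), and C1 tumors 0 to 151 with a median of 2.03. C3 overlapped with C1, as only tumor 28 exceeded the highest C1 tumor. The gene was low in nearly all tumors relative to NT, and its ratio of C3 to C1 reflects 3 C3 tumors. It was lower in CT than in SM (log2(FC) -1.38 ± 0.31 (SE), adjusted p = 0.000361 by edgeR), and at -0.98 in AT the change was just within the log2(FC) limit of 1. With the cat as a block the AT value was -1.47, and with DESeq2 -1.05, both past the limit. Without TMM the CT and AT values became -0.19 and 0.20, so its direction between AT and SM depended on the scaling.

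**Figure D5:**
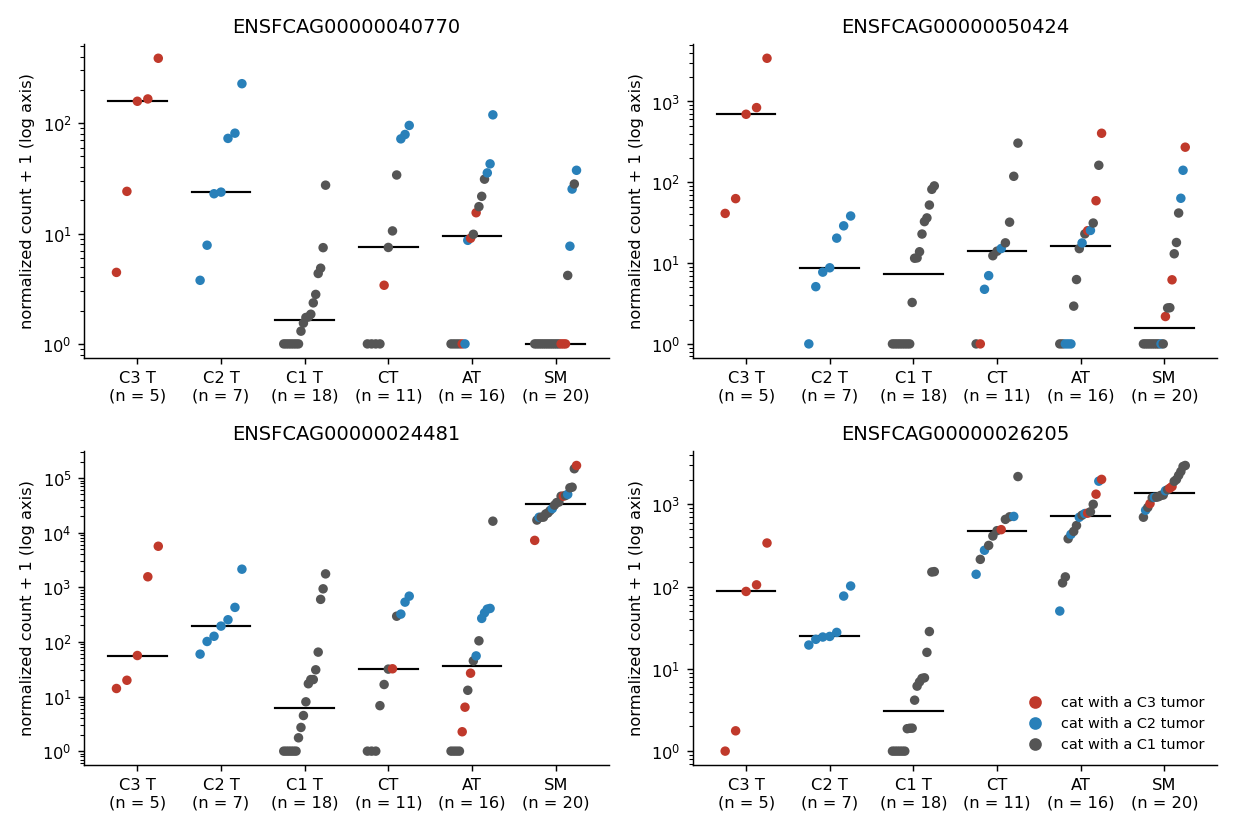
Normalized count + 1 (log axis) in each library for the 4 members given by identifier, by tumor cluster and NT, with black bars at the group median and color by the cluster of the cat's tumor. The upper members are raised in C3 tumors 10, 27 and 28 and lower in the other C3 tumors, while the lower members are highest in SM.

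The member ranked 77, also described after its values had been seen, differed strongly between cats within each tissue. In every tissue its normalized counts fell into a high and a low range: 4282 to 28373 in 9 SM libraries against 5.79 to 500 in 11, 1235 to 15690 in 9 AT libraries against 10.3 to 132 in 7, and 1049 to 2231 in 4 CT libraries against 0 to 132 in 7. In tumors the widest gap separated 16 at 202 or more from 14 at 80.1 or less. Of the 28 cats with libraries of more than 1 tissue, 26 were on the same side of the gap in each, the exceptions being cats 11 and 19, whose tumors stood at 227 and 202. After removal of the tissue means, 93.7% of the variance of its log2 values lay between cats, compared with a median of 49.96% over the members and 47.0% over the eligible genes, of which 2 had a higher share. Without cats 11 to 17 the share was 93.4%. Among C3 tumors it was high in tumor 10 (5719), 27 (490) and 28 (477) and low in tumors 7 (37.0) and 30 (4.59), and 8 of the 18 C1 tumors were in the high range. Its ratio was 9.93.

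Finally, it was asked whether the members varied together within a group of libraries. The C1 tumors entered the rule through their medians, but the order of the tumors within C1 was not used. The median correlation between pairs of members across the 18 C1 tumors was 0.23, and 0.00 between all genes with a median of at least 50 there. For the 12 members that reached this level in C1 tumors it was 0.26. Across NT it was 0.24 in AT, 0.27 in CT and 0.28 in SM, falling to 0.15, 0.20 and 0.18 without cats 11 to 17. At a median of 50 or more it was 0.20 for 21 members in AT, but only 0.10 for 36 in CT and 0.04 for 13 in SM. In the 7 C2 tumors it was 0.55. Within C1 tumors the 22 members lowest in C3 tumors 7 and 30 had a median correlation of 0.57, and the other 78 one of 0.22. In NT this contrast was smaller or absent, at 0.26 and 0.28 in AT, 0.39 and 0.28 in CT and 0.41 and 0.27 in SM. Many members had low counts in these libraries and share their depth, and genes are not independent replicates, so the correlations serve as a description. By this measure, the genes that separated C3 tumors 10, 27 and 28 from 7 and 30 also rose and fell together among C1 tumors, from a mean log2 level of 1.15 in tumor 25 to 5.76 in tumor 22.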

How the data were processed

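RNAseq libraries of LCM-isolated T, AT, CT and SM were grouped by their titles. Raw, unnormalized counts per Ensembl identifier were deposited for each library. The study's methods name Trimmomatic and Kallisto with a feline Ensembl annotation, whereas the submitters' processing notes name STAR and featureCounts. Clusters were taken from the rule, which places every tumor in a cluster and 18 in C1, more than the study's text counts there. The AT library for cat 5 is labelled tumor in other fields, and was used as AT by its title.

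Size factors rested on 6527 genes with a count in all 77 libraries and ran from 0.0959 to 3.29. Groups were tested in R 4.3.3 with edgeR 4.0.16 (quasi-likelihood, TMM, filterByExpr, Benjamini-Hochberg over all genes tested, adjusted p under 0.05, log2(FC) beyond 1), with DESeq2 1.42.0 as an alternative, after trial on simulated data. Levels were computed in Python 3.11.15, with a pseudocount of 1. The members, lists and rules were chosen with earlier results of these data known. The identifiers given are the 2 with the largest ratio and 2 that fell farthest in a test. The 25 gene lists could not be tested, since 0 identifiers matched the 39307 genes of the reference table.

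A case number marks the same cat, so libraries pair by animal. Across genes, the deviations of a cat's libraries from their tissue means had a median correlation of 0.190 between AT and SM (10 pairs), 0.0840 for CT and SM (8 pairs), 0.311 for AT and CT (5 pairs) and 0.116 for C2 tumors and AT (5 pairs), against -0.0039 to 0.0025 between cats. Alternatives comprised other filters and scalings, the cat as a block, small libraries (under 2000000 counts), cats 11 to 17 or single libraries left out. Left out here are sequences, gene symbols and the proteomic data. Total counts of 847003 to 19099337 set the precision of low values.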

Additional observations from a re-analysis of the deposited data

Results flagged for a closer look

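In groups of 4 to 10 libraries, 32 sets of values were examined and 7 held a library far from the others, where chance alone gives about 1.6. Within C3, tumor 28 stood apart for ENSFCAG00000050424 (3427 normalized counts, next 839) and tumor 7 for ENSFCAG00000024481 (5633, next 1555). Among C2 tumors, tumor 11 was apart for the number of members detected (94, next 98), for ENSFCAG00000040770 (227, next 80.1) and for ENSFCAG00000024481 (2142, next 427). Among AT of C1 cats, the library of cat 31 was apart for ENSFCAG00000050424 (161, next 30.3) and that of cat 6 for ENSFCAG00000024481 (16214, next 104). The AT library of cat 6 was also the AT library with the highest level of the other SM-abundant genes, at a mean log2 level of 11.1, where the median AT library had 2.99. The part of muscle tissue in that value was not tested.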

How the results depend on the processing

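Of the 100 members, 61 were kept with a minimum of 100 in place of 50 and 65 with means in place of medians. Leaving out single C3 tumors kept 71 to 80. Without TMM, 43 members were called higher in AT than in SM (14 with TMM), and for CT against SM 57 were higher and 1 lower (31 and 4). ENSFCAG00000026205 turned from -0.98 to 0.20 in AT against SM, and in CT against SM it weakened to -0.19. With abundant SM transcripts left uncorrected, the median of all genes moved up by about the same amount in both tests. For AT against CT the number of members called lower was 6 with DESeq2, 6 without libraries under 2000000 counts, 6 without cats 11 to 17 and 0 with the replicate block (2 otherwise). Among all genes tested, the number called lower also rose in each setting with 6, by a smaller factor, and fell with the block. For C2 tumors against AT the number called higher was 3 with DESeq2, 0 without libraries under 2000000 counts and 1 to 2 with single AT libraries left out, the 2 coming without cat 12 (1 otherwise). Here the number of all genes called higher also rose with DESeq2 and fell without libraries under 2000000 counts. Without cat 12 it fell, while that of the members rose. The shifts rest on few members and are not read as particular to them. The cause of these shifts was not tested. The block changed no other count of calls by over 1.5 times, but it also changed the number of genes tested. For AT against SM 19 of 46 members were called higher with it, beside 2178 of 11313 genes. Without it there were 14 of 57, beside 2549 of 12053. For CT against SM there were 34 of 67 with it, beside 2164 of 12022 genes, and 31 of 70 without it, beside 2959 of 12443. Over all counts recomputed, 12 moved by over 1.5 times and the rest stayed within it. Of the recomputed fold changes of the identifiers given and the recomputed levels by group, 191 were counted as unchanged, 1 as weaker and 1 as reversed. The weaker and the reversed value were those of ENSFCAG00000026205 without TMM. The unchanged fold changes stayed on their side of an adjusted p of 0.05, and those past it kept their direction. The size did cross the log2(FC) limit of 1 for some: ENSFCAG00000026205 in AT against SM (-0.98) became -1.47 with the replicate block. Values not past the adjusted p also changed sign, as for ENSFCAG00000024481 in AT against CT (3.01, but -0.14 with DESeq2 and -0.56 without cat 6) and ENSFCAG00000050424 in SM of C3 against C1 cats (3.94, but -0.65 without cat 7). Leaving out the AT library of cat 6, and the levels by group under other scalings, without cats 11 to 17 or without the 10 most abundant members, were alternatives added after the data had been seen, and moved no count by over 1.5 times. Low counts limit the members near 0 in C1 tumors and SM, and 30 of the 100 could not be tested between CT and SM.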
